A study of Mus musculus with 9 samples.

Results

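Among tdTomato-sorted cells of the mouse ventral midbrain, 184 wells combined Six3 with Uncx, Mafa or Sema3e, out of 1459 wells kept among 2688 on 7 plates (the series holds 3455 wells). A well was sorted to hold 1 cell. It was kept when it had at least 2000 genes, at most 50000 counts and under 15% mitochondrial counts, and it was a member when its rounded counts of Six3 and Six3os1 summed to at least 4 and those of Uncx, Mafa and Sema3e to at least 2. The members were thus chosen by measured counts of these 5 genes, whose levels are given as a description, with no test. The working name of this population, Six3 Foxp2 Uncx SNr-2 GABA neurons, also holds Foxp2, which the rule did not use. The data bear that name out in only some of the members, since 104 of 184 (56.5%) had at least 4 Foxp2 counts, and the wells are therefore called Six3 Uncx members below.

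The mice carried VGAT-Cre, the Ai14 reporter and Pitx3-GFP, and no other genotype or treatment entered the comparisons. Plates came from embryos at E16 (4 plates) or pups at P0 (3 plates), and each plate held 384 wells. Cre is driven from the gene of the vesicular GABA transporter and Ai14 tdTomato then stays on, so tdTomato marks cells that have at any time made VGAT, and those that also carried Pitx3-GFP were sorted to separate plates. Brains of several litters were used, and the labels give plates but no animals, so p-values measure the spread between plates. A further 2 plates of cells sorted for tdTomato and GFP together were not used here.

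The substantia nigra pars reticulata (SNr) is an output station of the basal ganglia, and its GABAergic neurons fire tonically onto thalamus, superior colliculus and brainstem. The neurons are made under selector factors such as Gata2, Gata3 and Tal1, which switch neuroblasts to the GABAergic fate. They reach the SNr by migration before birth, guided by molecules that include netrin-1, and the netrin receptor DSCAM is needed for the Six3 neurons to settle there. Six3 and Pax5 mark separate groups of these neurons. Foxp2 is a forkhead repressor best known from corticostriatal circuits and vocal learning, Uncx is a paired-type homeodomain factor, Mafa a large MAF factor and Sema3e a secreted semaphorin.

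Positions are those of GRCm38 in the GENCODE vM21 annotation. Six3 (ENSMUSG00000038805) lies at chr17:85613608-85629302 on the plus strand, and Six3os1 (ENSMUSG00000093460), its antisense partner, at chr17:85600651-85618398 on the minus strand, so that the genes overlap. The strand setting of the counting is not given in the sources used here, and the reads of this pair cannot be told apart without it. The rule summed both. Uncx (ENSMUSG00000029546) lies at chr5:139543494-139548179 and Sema3e (ENSMUSG00000063531) at chr5:14025276-14256689, both on the plus strand. Mafa (ENSMUSG00000047591) lies at chr15:75745490-75748228 on the minus strand and Foxp2 (ENSMUSG00000029563) at chr6:14901349-15441977 on the plus strand.

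Start regions from RefSeq (GRCm38.p6) were found for 4 of these 6 genes, Six3, Six3os1, Uncx and Sema3e. The 250 bases before each RefSeq start were searched on both strands for 4 short motifs, because the marker genes encode homeodomain, forkhead and MAF factors. TAATTA, a homeodomain core, was in 4.84% of 32851 such windows, TGATAC, a core of sites bound by Six3-type factors, in 4.64%, TGTTTAC, a forkhead core, in 3.17% and TGCTGAC, a MAF core, in 3.81%. The only window of the 4 genes with a match was that of Uncx, which held TGATAC once and TAATTA at 2 places. In GENCODE vM21 the window lies in the first exon of Uncx, whose start is placed further upstream there. The matches are shown with 12 bases on either side, 5′ to 3′ on the plus strand, at chr5:139543722-139543751, chr5:139543753-139543782 and chr5:139543856-139543885. Capitals mark the motif.
Uncx TGATAC match: tgtgacagctccTGATACtgtttatggagg
Uncx first TAATTA match: gcgtgtcaggtaTAATTAgcaatcgatatg
Uncx second TAATTA match: ccgggccgcggcTAATTAtcgagagcttga
A match is a match of letters and no measured binding site.

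Sema3e is shown as the member gene with a start that both annotations place at the same base. Its 250 bases, chr5:14025026-14025275 on the plus strand, overlap no annotated feature and held none of the 4 motifs.
Sema3e upstream: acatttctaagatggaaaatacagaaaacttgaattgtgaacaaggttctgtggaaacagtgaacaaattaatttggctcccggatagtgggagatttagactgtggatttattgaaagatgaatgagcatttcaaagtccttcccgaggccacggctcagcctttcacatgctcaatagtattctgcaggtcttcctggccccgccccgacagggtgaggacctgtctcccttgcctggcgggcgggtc

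The members were a minority on every plate. They made up 45 of 190, 29 of 228, 48 of 303 and 27 of 304 kept wells on the 4 E16 plates, which is 23.7%, 12.7%, 15.8% and 8.88%. On the 3 P0 plates they made up 6 of 44, 16 of 219 and 13 of 171 kept wells, which is 13.6%, 7.31% and 7.60%. The mean share was 15.3% ± 6.28 (SD, n = 4 plates) at E16 and 9.51% ± 3.57 (SD, n = 3) at P0, and the plates of the stages overlapped. The difference of -5.77 percentage points was not larger than the spread between plates (exact permutation test, two-sided, p = 0.171). The smallest p this design allows is 0.0571. The members were also deeper than the rest, with median counts per well of 11631 to 46542 over plates against 7362 to 33324 in the other kept wells, 1.29 to 1.59 times as many within a plate, and a rule on counts finds deep wells more easily. Restricting each class to wells of like depth, which also dropped P0 replicate 1 with 4 such members, gave 329 calls against the other kept wells, 215 against the other Six3 wells and 504 against the Pax5 wells, where all wells gave 439, 219 and 655 (and 468, 286 and 655 without that plate).

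**Figure D1:**
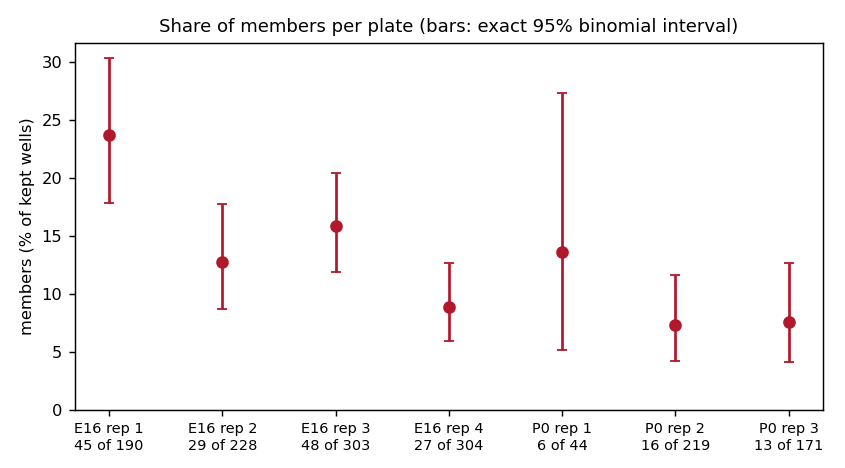
Members as a percentage of the kept wells of each plate (y axis) for the 4 E16 and 3 P0 plates (x axis, with the members and kept wells of each). Vertical lines give 95% binomial intervals (Clopper-Pearson) for the error of counting wells alone, and the first E16 plate is highest at 23.7% while the second P0 plate is lowest at 7.31%.

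Six3 dominated the counts that chose the members. A member held a median of 25 Six3 counts (range 4 to 89), 32 counts of Six3 and Six3os1 together (4 to 115), and 5.5 counts of Uncx, Mafa and Sema3e together (2 to 51). Uncx had a count in 167 members, Six3os1 in 165, Sema3e in 111 and Mafa in 35 of 184. Levels were computed as CPM, the counts of a gene in all wells of a class on a plate per 1000000 counts of those wells. Over the 7 plates, lowest, median and highest, Six3 lay at 1037, 1285 and 1424 CPM in members against 160, 268 and 298 CPM in the other kept wells. Uncx lay at 116, 180 and 225 CPM in members against 23.8, 36.7 and 55.8 CPM, and Sema3e at 106, 169 and 270 CPM against 12.6, 26.7 and 39.9 CPM. Mafa was scarcer, at 10.7, 20.5 and 64.2 CPM in members against 0.448, 0.989 and 1.58 CPM. None of these levels overlapped between members and other wells on any plate, a gap that the rule itself sets.

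The members carried the transcripts of GABAergic neurons. Gad1, which makes GABA, had a count in 184 of 184 members, Gad2 in 181 and Slc32a1, the vesicular GABA transporter, in 169. Slc17a6, the vesicular glutamate transporter, had a count in 5 members, the dopamine enzyme Th in 4 and the dopamine neuron factor Pitx3 in 0 of 184, which allows up to 1.63% of wells with a count and sets no limit on wells that express it below detection. Cells with Pitx3-GFP were sorted apart from these plates, which bears on this count. Of 7 GABA neuron genes tested against the other kept wells, 0 passed the test in either direction, where 4.21% of all genes tested did. Gad1 was at a log2 fold change of 0.21 (adjusted p = 0.097), Gad2 at 0.00 (adjusted p = 1.00) and Slc32a1 at 0.07 (adjusted p = 0.84). Summed markers of other cells were low in members on every plate, from 0 to 24.99 CPM for astrocytes with Gfap at 0, 0 to 14.99 CPM for the oligodendrocyte lineage with Sox10 at 0, and 0 to 9.99 CPM for microglia with C1qa at 0. Endothelial markers summed to 0 to 4.0 CPM with Cldn5 at 0, and dopamine markers to 3.2 to 42.3 CPM with Pitx3 at 0, against 25.7 to 58.5 CPM in the other wells.

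Foxp2, which the rule did not count, had the largest fold change of the genes named by rule as higher in members. It is in the working name of the population, which was chosen with earlier results of these data known. The p-value of Foxp2 is therefore not independent of that choice. Its level was 679, 999 and 1530 CPM (lowest, median, highest of 7 plates) in members and 77.2, 143 and 172 CPM in the other kept wells, and the plates of the classes did not overlap. The mean was 1025 ± 314 CPM (SD, n = 7 plates) in members and 130 ± 39.8 CPM in the others, a log2 fold change of 3.00 ± 0.16 (SE) with an adjusted p of 2.2e-08. After each well was thinned to 4000 counts, Foxp2 was seen in 52.0% ± 9.86 of members and 18.1% ± 3.16 of the other wells (SD, n = 7 plates). Before thinning the shares were 68.7% ± 10.8 and 33.7% ± 10.7. Foxp1 and Foxp4, relatives of Foxp2 that can pair with it, went the same way. Foxp1 lay at 572, 780 and 1138 CPM in members against 265, 324 and 424 CPM in the others (log2 fold change 1.24 ± 0.13, adjusted p = 2.1e-05), and Foxp4 averaged 149 CPM against 62.2 CPM (1.42 ± 0.17, adjusted p = 5.7e-05). So all 3 forkhead P genes tested were higher in members, against 2.05% of all genes tested.

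**Figure D2:**
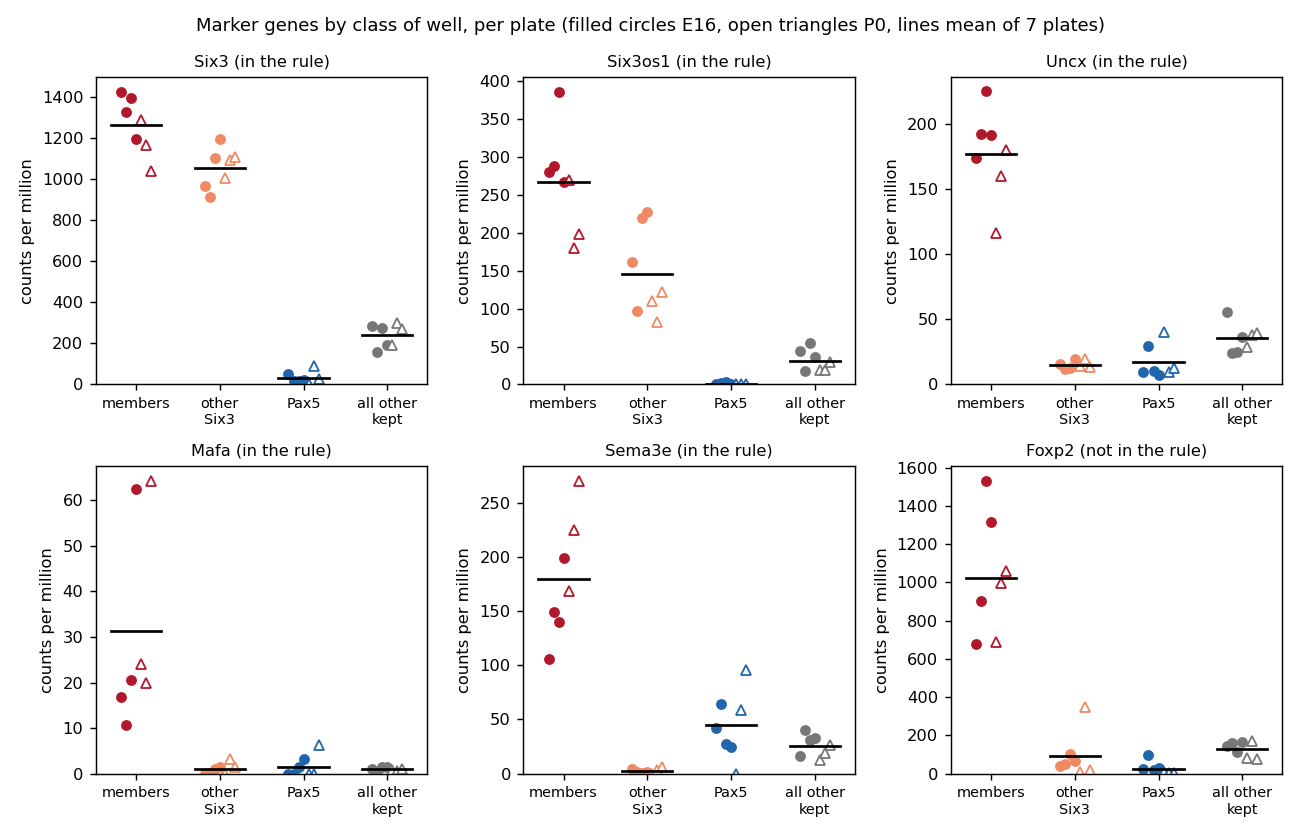
Level in CPM (y axis, from 0) of the marker genes in members, other kept wells, other Six3 wells and Pax5 wells (x axis), with 1 point per plate (filled circles E16, open triangles P0) and a line at the mean. The rule genes separate members by construction, and Foxp2, which the rule did not use, lies at 679 CPM or more in members and at 172 CPM or less in the other kept wells on every plate.

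Over all genes, counts summed per plate and class were compared within plates by edgeR's quasi-likelihood test with Benjamini-Hochberg adjustment. Against the other kept wells, 439 of 10425 genes tested differed (4.21%), of which 214 were higher (2.05%) and 225 lower (2.16%) in members. Against the other Six3 wells, 247 wells with at least 4 Six3 and Six3os1 counts but fewer than 2 of Uncx, Mafa and Sema3e, 219 of 9004 genes differed (2.43%), with 132 higher (1.47%) and 87 lower (0.966%). Against the Pax5 wells, 183 wells with at least 4 Pax5 counts and under 4 of Six3 and Six3os1, 655 of 8511 genes differed (7.70%), with 340 higher (3.99%) and 315 lower (3.70%). The Pax5 comparison used 6 plates, because the first P0 plate had 3 such wells. The comparisons share the members, so their values stand side by side and are no independent evidence of each other. Without E16 replicate 3 the calls in these comparisons were 302, 141 and 412, without the plate block 178, 60 and 374, and with a looser rule for members 281, 96 and 651. The 96 also lacks P0 replicate 1, which then had too few wells, and without that plate alone the count was 286.

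Several transcription factor genes differed between members and the other kept wells. Bnc2, a zinc finger factor picked after its values were seen, averaged 64.7 ± 74.5 CPM in members and 6.64 ± 5.63 CPM in the others (log2 fold change 3.38 ± 0.39, adjusted p = 3.8e-05), higher on 6 of 7 plates. Esrrb, an orphan nuclear receptor, averaged 24.8 CPM in members and 3.86 CPM in the others (log2 fold change 2.92 ± 0.42, adjusted p = 0.00035), with its highest plate at 54.7 CPM. Klf5, a zinc finger factor, averaged 24.7 CPM against 8.84 CPM (1.36 ± 0.25). The long noncoding Sox2ot, which contains Sox2 on the same strand and can share reads with it, averaged 536 CPM against 207 CPM (1.44 ± 0.16, adjusted p = 2.5e-05). Factors lower in members included Sp9 (1.29 against 35.4 CPM, log2 fold change -4.48 ± 0.29), which marks interneuron lineages, and Neurod6 (1.43 against 36.0 CPM). En1 and En2, the engrailed factors of midbrain and anterior hindbrain, were lower too. En1 lay at 0, 5.93 and 14.99 CPM in members against 37.6, 62.0 and 86.8 CPM in the others, and En2 averaged 13.8 against 55.9 CPM. Meis2, a TALE homeodomain factor, lay at 16.1, 87.2 and 189 CPM against 459, 838 and 1097 CPM (-3.02 ± 0.29, adjusted p = 6.3e-06), and its relative Meis1 averaged 8.54 against 40.3 CPM. Bhlhe22, a basic helix-loop-helix factor, was lower as well (5.72 against 32.0 CPM). The plates of the classes overlapped for Bnc2, Esrrb, Klf5, Meis1 and Bhlhe22.

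Among 51 neuronal identity factors tested, 6 were higher and 17 lower in members than in the other kept wells, with a median log2 fold change of -0.26 against -0.00 over all genes. The shares over all genes tested were 2.05% higher and 2.16% lower. The 6 higher were Esrrb, Irx5, Ebf3, Pou3f2, Pbx3 and Esrrg, the last of which reversed (-0.016) with at least 6 counts of Uncx, Mafa and Sema3e. Irx5, an Iroquois factor, lay at 24.99, 61.0 and 80.1 CPM against 17.1, 24.4 and 36.6 CPM, so its plates overlapped between classes although the difference passed the test (log2 fold change 1.28, adjusted p = 0.0011). Of the SNr-1 Pax5 markers, 4 of 5 tested were lower in members and 0 higher, and their summed level was 48.2 to 225 CPM in members against 196 to 1209 CPM in the other wells.

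The selector genes of the GABAergic fate were called in both directions against the other kept wells, where 2.05% of all genes tested were higher and 2.16% lower. Of 13 tested, 3 were higher and 2 lower. Gata3 lay at 703, 896 and 1119 CPM in members against 358, 470 and 670 CPM in the other wells, without overlap (log2 fold change 0.94 ± 0.07, adjusted p = 6.0e-07). Zfpm1, a cofactor of GATA proteins, lay at 31.3, 41.5 and 94.9 CPM against 14.4, 18.1 and 32.6 CPM (1.32 ± 0.14), and Ldb2, a LIM-domain binding cofactor, passed too (0.79). Sox14 (-1.73) and Zfpm2 (-0.56) were lower. Gata2 was at -0.27 (adjusted p = 0.66) and Tal1 at 0.36 (adjusted p = 0.14), and neither passed the test.

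Genes outside transcription gave further large differences. Fign, a microtubule-severing ATPase, lay at 325, 455 and 543 CPM in members against 86.0, 98.8 and 194 CPM (log2 fold change 2.02 ± 0.14, adjusted p = 1.9e-07). Adarb2, an adenosine deaminase relative that is catalytically silent, lay at 1539, 2225 and 4536 CPM against 434, 713 and 922 CPM (1.89 ± 0.13, adjusted p = 1.9e-07). Trpc4, a calcium-permeable TRP channel, lay at 87.7, 103 and 230 CPM against 32.0, 35.8 and 43.9 CPM (1.81 ± 0.17), and in none of these 3 genes did the classes overlap. Adam12, a metalloprotease, averaged 53.5 against 14.8 CPM, Mpped1 75.9 against 22.7 CPM and Kctd12, an auxiliary subunit of GABA-B receptors, 376 against 142 CPM. Lower in members were Lamp5 (3.42 against 58.3 CPM, log2 fold change -3.98 ± 0.27), a marker of some GABAergic neurons, Irs4 (2.02 against 31.1 CPM), an insulin receptor substrate, Ecel1 (4.31 against 26.7 CPM) and the secreted Fam19a1 (66.4 against 325 CPM). Of the 24 genes named by rule in this comparison, 22 passed under every setting in which they were tested, and Neurod6 and Bhlhe22 lost their call under a looser rule for members.

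**Figure D3:**
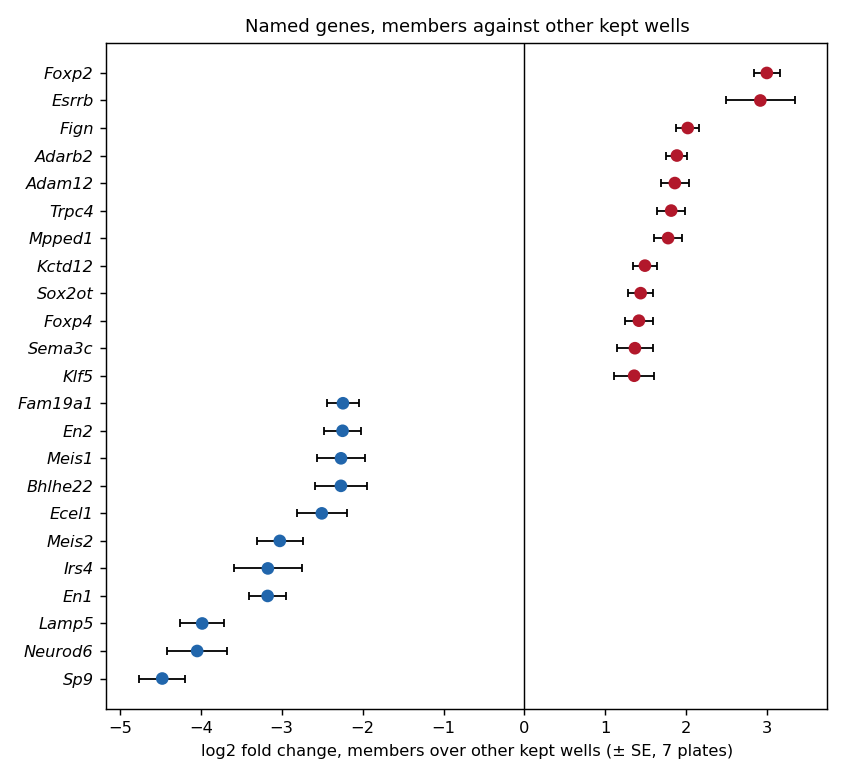
Log2 fold change with its SE (x axis) of 23 of the 24 genes named by rule, members over other kept wells across 7 plates (y axis, genes). Foxp2 is highest at 3.00 and Sp9 lowest at -4.48.

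Guidance molecules differed gene by gene, with calls in both directions. Against the other kept wells, 2.05% of all genes tested were higher and 2.16% lower in members. Of 25 semaphorin, plexin and neuropilin genes tested, 5 were higher and 1 lower than in the other kept wells (median log2 fold change -0.02). Nrp1, a receptor for class 3 semaphorins, lay at 310, 395 and 455 CPM in members against 127, 179 and 211 CPM (1.12 ± 0.11, adjusted p = 8.7e-06), without overlap. The ligand Sema3c lay at 26.4, 96.3 and 145 CPM against 23.0, 35.7 and 70.8 CPM (1.37 ± 0.22), with overlap. The plexin receptors Plxna2 (0.76) and Plxna4 (0.68) and the transmembrane Sema6d (0.60) were higher, and the ligand Sema3a was lower (-1.95). Of 13 netrin pathway genes tested, 2 were higher and 3 lower. Rgma, a ligand of neogenin, lay at 105, 160 and 223 CPM against 59.8, 74.2 and 136 CPM (1.11, adjusted p = 0.00014). The netrin receptor Dcc was higher by less (0.47, adjusted p = 0.0059), a call lost with spliced counts and without the plate block. Dscam did not pass, at 408, 601 and 718 CPM in members and 488, 556 and 699 CPM in the others (0.004, adjusted p = 1.00). Its relative Dscaml1 (-1.11), Unc5d (-0.64) and Rgmb were lower, and Unc5c, a repulsive netrin receptor, did not pass (0.44, adjusted p = 0.086). Of 8 genes of Slits, Robos and their Srgap effectors, 0 were higher and 2 lower, Robo1 and Slit3, the latter reversed under the looser rule (0.20), and of 17 Eph and ephrin genes 2 were higher and 3 lower.

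Receptor and channel genes were called in both directions as well, beside shares of 2.05% higher and 2.16% lower over all genes tested. Of 18 genes of inhibitory synapses tested (GABA-A and glycine receptor subunits, gephyrin and chloride transporters), 4 were higher and 0 lower in members than in the other kept wells (median log2 fold change 0.13), namely the GABA-A subunit genes Gabrg3 (0.78), Gabra2 (0.45), Gabra3 (0.43) and Gabra5 (0.43). Gabra2 lay at 141, 262 and 320 CPM in members and 142, 174 and 197 CPM in the others, with overlap. Of 23 glutamate receptor genes, 2 were higher and 4 lower. The metabotropic Grm3 was among the higher (1.22). Of 34 potassium channel genes, 1 was higher and 6 lower. The 1 was Kcnip4, a subunit of A-type channels, at 1000, 1715 and 2985 CPM against 607, 793 and 927 CPM (1.19, adjusted p = 0.00024), which lost its call with spliced counts. Of 31 sodium, calcium, HCN, TRPC and related channel genes, 5 were higher and 1 lower, with Trpc4 and Trpc7 (0.81) among the 5. Of 28 genes of the cadherin superfamily, 7 were higher and 4 lower. Of 13 genes of neuropeptides, granins and their processing enzymes, 1 was higher, the convertase gene Pcsk2, and 3 were lower, the peptide genes Tac1 and Sst and the granin Scg2, with Tac1 reversed under the looser rule (0.054). Sst, the somatostatin gene, lay at 4.02, 89.9 and 180 CPM in members against 34.6, 193 and 451 CPM (-1.68, adjusted p = 0.00015).

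The other Six3 wells share the Six3 threshold with the members, and Foxp2 set the members apart from them as well. In these wells Foxp2 lay at 9.61, 52.8 and 347 CPM, below the 679 CPM of the lowest member plate (log2 fold change 3.89 ± 0.31, adjusted p = 1.2e-06). Trpc4 lay at 13.4, 20.2 and 52.4 CPM in other Six3 wells, also below every member plate (2.59 ± 0.26, adjusted p = 9.5e-06). Adam12 averaged 53.5 against 9.84 CPM (2.42 ± 0.25) and Zeb2, a zinc finger homeobox factor, 186 ± 125 against 35.5 ± 21.7 CPM (2.41 ± 0.17, adjusted p = 3.3e-07). Irx5 (52.8 against 15.9 CPM) and Mylip (28.5 against 8.27 CPM), a ubiquitin ligase, were higher by smaller steps. Foxp1 (1.23), Foxp4 (1.17), Gata3 (0.78) and Zfpm1 (1.21) were again higher, while Gata2 (-1.11, adjusted p = 0.00026) was lower than in other Six3 wells.

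Some markers of the other Six3 groups were lower in members. Against the other Six3 wells, 1.47% of all genes tested were higher and 0.966% lower. Of 6 Six3 Tcf7l2 markers tested 3 were lower and of 4 Six3 Onecut markers 2 were lower, with 0 higher in either list, and Pbx3, Lmo1, Lhx1os, Pou2f2 and Pnoc did not pass. Tcf7l2, a Wnt effector that marks some Six3 neurons, lay at 240, 446 and 613 CPM in members against 235, 769 and 2212 CPM (log2 fold change -1.09 ± 0.20, adjusted p = 0.0041), with overlap between plates. Onecut2 (-1.48, adjusted p = 0.013), Nkx2-2 (-1.35, adjusted p = 0.00014) and Otx2 (-0.90, adjusted p = 0.014) were lower too. The named genes lower in members were Sst (76.7 against 327 CPM, -2.25 ± 0.26), Cdh23 (12.5 against 43.6 CPM), Zfp503 (4.74 against 22.6 CPM), Islr2 (16.7 against 55.5 CPM), Meis2 (88.4 against 294 CPM) and Slit3 (23.1 against 63.7 CPM). Of 17 genes of the inhibitory synapse list, 6 were higher and 0 lower than in other Six3 wells (median 0.36), with Gabra2 at 88.5, 120 and 154 CPM there (1.05, adjusted p = 8.2e-06) and Gabrb2 (0.69) and Gabrg1 (0.88) also passing. Unc5c was higher (0.88, adjusted p = 0.0010). Of the 12 genes named by rule here, 7 kept their call in every setting in which they were tested, and Irx5, Mylip, Slit3, Sst and Zfp503 lost it in at least 1.

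Against the Pax5 wells Foxp2 and several of the genes above stood further apart in level. Foxp2 lay at 4.86, 17.6 and 96.9 CPM in Pax5 wells (log2 fold change 5.11 ± 0.33, adjusted p = 7.6e-09). Sox2ot averaged 543 against 25.8 CPM, Fign 448 against 22.5 CPM and Tcf7l2 427 against 26.1 CPM. Nr2f1, an orphan nuclear receptor, averaged 258 against 14.2 CPM, and the growth factor gene Igf1 58.4 ± 58.7 against 4.03 CPM, where the SD in members was as large as the mean. In the other direction, Sp9 averaged 1.503 CPM in members and 141 CPM in Pax5 wells (-6.07 ± 0.26, adjusted p = 5.2e-11), C1ql1, a secreted synapse organizer, 4.44 against 188 CPM, Irs4 2.35 against 155 CPM, En1 7.10 against 243 CPM and Pax8 4.58 against 97.5 CPM. All 12 genes named by rule kept their call in every setting in which they were tested. Gata2, which did not pass the test against the other kept wells, was higher than in Pax5 wells (2.53, adjusted p = 7.0e-07). Of 45 identity factors, 18 were higher and 13 lower, and of 18 inhibitory synapse genes 3 were higher and 6 lower, among the latter the GABA-A subunit gene Gabrb2 (-1.09), the glycine receptor genes Glra1 and Glra3, and Gphn, the scaffold gephyrin. Over all genes tested against the Pax5 wells, 3.99% were higher and 3.70% lower.

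The members themselves were not uniform. With at least 4 counts as the mark, 104 members (56.5%) had Foxp2, 22 (12.0%) Tcf7l2, 25 (13.6%) Onecut2 and 51 (27.7%) none of these. Only 3 members held both Foxp2 and Tcf7l2. In the other Six3 wells 21 of 247 (8.50%) had Foxp2, 84 (34.0%) Tcf7l2 and 53 (21.5%) Onecut2. The share of members with Foxp2 was 48.9%, 55.2%, 62.5% and 55.6% on the E16 plates and 33.3%, 62.5% and 69.2% on the P0 plates, the 33.3% being 2 of 6 wells.

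Where Foxp2 lay among Six3 wells followed the count that the rule thresholds. With 0, 1, 2, 3 to 5, 6 to 10 and over 10 counts of Uncx, Mafa and Sema3e in the well, Foxp2 stood at 64.7, 104, 132, 501, 1215 and 1815 CPM. Tcf7l2 stood at 1311, 973, 794, 630, 537 and 139 CPM over the same steps. The wells just outside the threshold, with 1 count (78 wells, 104 CPM Foxp2), and those just inside, with 2 counts (36 wells, 132 CPM), stood close to each other in Foxp2. The same steps after thinning to 4000 counts gave Foxp2 in 16.3%, 17.1%, 17.1%, 35.7%, 69.6% and 87.0% of wells, and Tcf7l2 in 46.4%, 35.5%, 31.4%, 33.9%, 8.70% and 15.2%, which did not fall at every step. Without thinning Tcf7l2 had a count in 61.5% of wells in the first step and 58.7% in the last. On the Six3 side, the 11 members with 4 or 5 counts of Six3 and Six3os1 had Foxp2 at 403 CPM, the 173 with more had 1066 CPM, and 49 wells just outside, with 2 or 3 such counts and at least 2 of the other sum, had 109 CPM. These are pooled levels with no test, and median counts per well differed between the steps, at 15616, 18323, 21204, 18419, 23557 and 29846 for the sum of Uncx, Mafa and Sema3e.

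**Figure D4:**
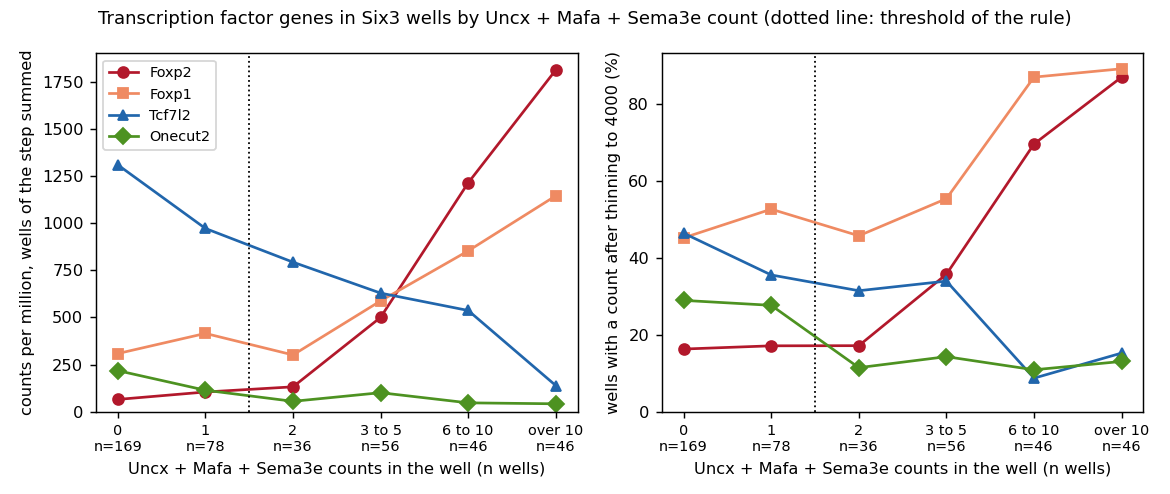
Foxp2, Foxp1, Tcf7l2 and Onecut2 in Six3 wells by their count of Uncx, Mafa and Sema3e (x axis), as CPM and as the percentage of wells with a count after thinning to 4000 counts (y axes, from 0). The dotted line is the threshold of the rule, and Foxp2 stands at 132 CPM just inside it and at 1815 CPM in the last step.

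Which of the 3 genes brought a well into the rule went with its Foxp2 as well. The 13 members with Sema3e alone had Foxp2 at 137 CPM and the 65 with Uncx alone at 319 CPM. The 71 with Uncx and Sema3e stood at 1281 CPM, the 4 with Mafa and Sema3e at 1250 CPM, the 8 with Uncx and Mafa at 1438 CPM, and the 23 with all 3 genes at 2191 CPM, where 23 of 23 had a Foxp2 count. Median counts were 23513 with Sema3e alone, 20729 with Uncx alone, 24891 with Uncx and Sema3e, 6693 with Mafa and Sema3e, 32817 with Uncx and Mafa and 28652 with all 3. The part of depth in these levels was not tested.

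A split of the members at 4 Foxp2 counts, chosen after the values were seen and given as a description with no test, showed which genes ran with Foxp2. The 104 wells at or above the mark and the 80 below had median counts of 25338 and 22850, and on the first P0 plate they were 2 and 4 wells. Trpc4 averaged 225 CPM over plates in the former and 18.6 CPM in the latter, Adam12 84.5 and 13.3 CPM, Fign 667 and 138 CPM, Sox2ot 842 and 219 CPM, and Cdh8, a classical cadherin, 975 and 344 CPM. Lower with Foxp2 were Otx2 at 11.5 and 207 CPM, Tcf7l2 at 63.6 and 958 CPM, the enkephalin gene Penk at 15.7 and 190 CPM, Nkx2-2 at 11.5 and 107 CPM, Cntn4 at 36.7 and 328 CPM, Cdh13 at 272 and 1095 CPM and Unc5d at 207 and 598 CPM. These genes were picked from the named and listed genes because the lowest plate of the higher class lay above the highest plate of the lower. Outside the members, 137 kept wells had at least 4 Foxp2 counts with under 4 of Six3 and Six3os1, and there Fign averaged 91.3 CPM, Trpc4 23.4 CPM and Sox2ot 103 CPM.

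**Figure D5:**
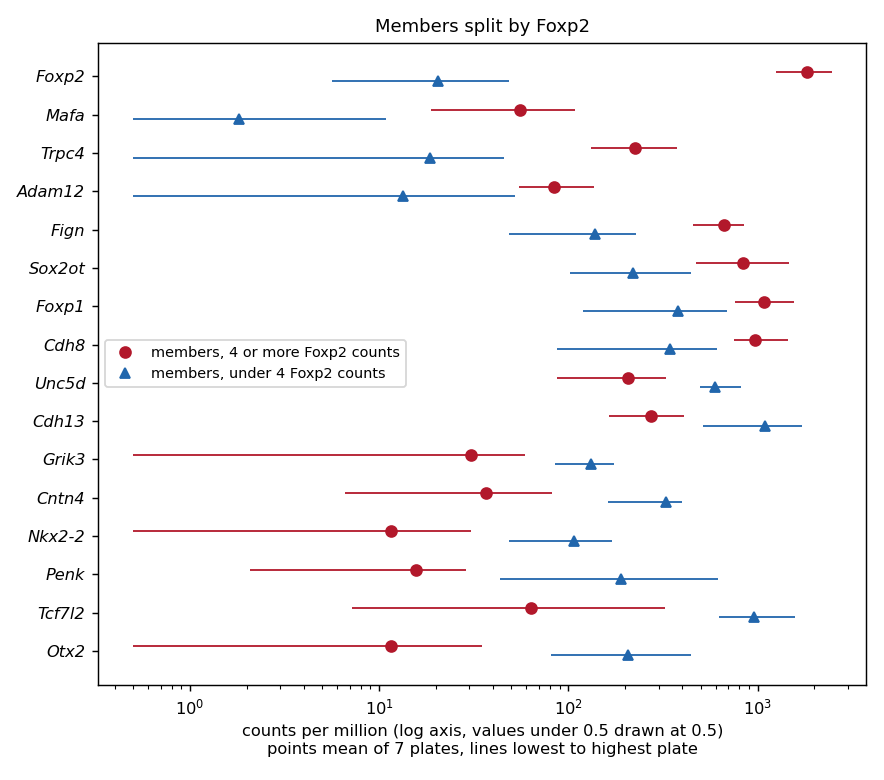
Mean level over 7 plates in CPM (x axis, log scale, values under 0.5 drawn at 0.5) of genes in members with at least 4 Foxp2 counts and in members with fewer (y axis, genes), with lines from the lowest to the highest plate. Foxp2 defines the split and Mafa is a gene of the rule. The genes were picked because the plates of the classes do not overlap, such as Trpc4 at 225 against 18.6 CPM and Otx2 at 11.5 against 207 CPM.

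The stages were compared in 4 against 3 sums of members, and the stage itself is uncertain. The names of the wells carry a second plate label that gives another stage than the sample titles for 4 of the 7 plates. By the titles, 29 of 8517 genes tested differed between P0 and E16 members (0.340%), and 1212 were under 0.05 before adjustment. By the second label 1 gene did, and 14 of the genes followed here turned direction, among them Neto1 (-0.052), Thy1 (-0.19), Nrgn (-1.999) and Pbx3 (0.22). The values below follow the titles. Thy1, a surface glycoprotein of mature neurons, stood at 13.2, 41.5, 28.8 and 11.7 CPM on the E16 plates and 112, 165 and 116 CPM on the P0 plates (log2 fold change 2.40 ± 0.35, adjusted p = 0.017). Neto1, an auxiliary subunit of kainate receptors, stood at 37.0, 29.6, 39.0 and 21.5 CPM and then 96.4, 165 and 128 CPM (1.96 ± 0.27, adjusted p = 0.013). Pbx3, a TALE homeodomain factor, stood at 1526, 1141, 1444 and 1193 CPM and then 289, 505 and 780 CPM (-1.34 ± 0.26, adjusted p = 0.039).

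Other genes named by rule were the synaptic Nrgn (4.80 CPM at E16 and 50.2 CPM at P0), the collagen gene Col4a1 (6.98 and 38.0 CPM), the glycolytic Eno1 (56.8 and 186 CPM) and Cdkl2 (25.5 and 77.2 CPM), all higher at P0, and Maf (56.1 and 4.88 CPM), Ebf1 (219 and 43.7 CPM), Meis2 (132 and 30.7 CPM), Zfp521 (158 and 50.0 CPM) and Pxdn (83.6 and 29.2 CPM), all lower. Sox11 (-1.27) and Cd24a (-1.32), genes of young neurons, were lower at P0 as well, 2 of 13 immature neuron genes tested, and 1 of 16 mature neuron genes was higher. The share called between the stages over all genes tested was 0.340%. None of the 12 kept its call in every setting. Leaving out E16 replicate 1, 3 or 4 left 0, 1 and 17 calls, and leaving out P0 replicate 2 or 3 left 0 and 9. Gm42418, an entry that overlaps ribosomal RNA and was picked after its value was seen, was also higher at P0 (1.04, adjusted p = 0.048), and its part in these changes was not tested. Foxp2 was at -0.28 ± 0.26 (adjusted p = 0.67), which did not pass. Of 11392 genes tested, the stage change of members differed from that of the other kept wells in 1 (0.00878%), Pax5, and 703 genes were under 0.05 before adjustment. DESeq2 called 11.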

How the data were processed

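Cells were sorted into 384-well plates and sequenced by SORT-seq, a CEL-seq2 protocol with molecular barcodes. The authors mapped reads with STAR to mm10, and the deposited values are expected counts per gene and well, corrected for barcode collisions and not scaled, so 51.7% of non-zero values are not whole. Exonic and intronic counts are summed in the table used, and a spliced table served as an alternative. Summed counts were rounded. Spike-in and mitochondrial entries stayed out of sums and tests, and no doublet caller was run. Every plate carries the same 384 well barcodes by design. Kept wells of a plate held 1434306 to 5403472 counts, and 3 counts in the members of a plate correspond to 2.64 to 14.997 CPM. Plates of each stage are replicates, grouped by sample title.

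Counts per plate and class were tested with edgeR 4.0.16 in R 4.3.3 (TMM factors, filterByExpr, plate as a block except for stage, Benjamini-Hochberg, threshold 0.05, at least 5 wells per class), after the script was tested on simulated data. Genes of the rule were left out. Shares were tested with scipy 1.17.1. Intervals are exact binomial. CPM levels carry no TMM factor. Genes named by rule passed the test in 1 direction on every plate (for stage, groups of plates that do not overlap) with at least 20 CPM, the first 12 per direction against other kept wells and the first 6 otherwise, beside genes of 41 lists. Members and lists were chosen with earlier results of these data known. Alternatives were DESeq2 1.42.0, RLE factors, no filter, spliced counts, stricter, looser and thinned rules, wells without high counts, wells of like depth, plates with at least 10 members, other blocks and each plate left out. A threshold of 6 counts of Uncx, Mafa and Sema3e, the second plate label and the Foxp2 split were chosen after seeing the data. A few genes that passed are not reported here.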

Additional observations from a re-analysis of the deposited data

Results flagged for a closer look

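In members, Esrrb stood at 54.7 CPM on the fourth E16 plate against 8.03 to 27.7 CPM on the other plates, which set that plate apart from the rest of its group. Irs4 stood at 9.69 CPM on the first E16 plate against 0 to 2.37 CPM elsewhere. Of 31 such groups looked at, 2 stood out in this way, and chance flags about 1 in 20.

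Pax5 was the gene whose stage change differed between members and other kept wells, by 3.16 ± 0.46 on the log2 scale (edgeR, adjusted p = 0.030). The call depends on the second P0 plate among others, where members stood at 125 CPM against 9.77 to 24.7 CPM on the other plates. There 3 of 16 members had at least 4 Pax5 counts, and all 3 had at least 4 Foxp2 counts. Over all plates 8 of 184 members had at least 4 Pax5 counts. Without that plate the difference kept its direction at 2.56 and lost its call (adjusted p = 0.43), as it did without P0 replicate 1 (3.27, adjusted p = 0.075) and without E16 replicate 3 (2.87, adjusted p = 0.084). It was 1.79 without wells of high counts (adjusted p = 0.69) and -0.58 by the second plate label (adjusted p = 1.00).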

How the results depend on the processing

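The difference in the share of members kept its direction in every setting, from -2.97 to -7.90 points with a plate left out and -3.73 by the second plate label. Against the other kept wells, 439 calls became 816 with no filter on low counts, 281 under the looser rule and 178 without the plate block, with 302 to 468 when a plate was left out. Against the other Six3 wells, 219 became 439 with no filter and 60 without the plate block. The looser rule (96) and at least 6 counts of Uncx, Mafa and Sema3e (363) also dropped P0 replicate 1, which had too few wells there, and without that plate alone the count was 286. Leaving out a plate gave 141 (without the third E16 plate) to 286. Against Pax5 wells, 655 became 374 without the plate block, with 412 (without the third E16 plate) to 655. For stage, 29 calls became 62 with DESeq2, 258 with no filter, 61 with spliced counts, 13 under the stricter and 180 under the looser rule, 8 without wells of high counts and 1 by the second label, with 0 to 43 on leaving out a plate. For the difference of stage changes, 1 call became 11 with DESeq2, 107 with no filter, 12 with spliced counts, 5 under the stricter and 12 under the looser rule, 8 with the rule after thinning (P0 replicate 1 dropped, without which alone it was 0) and 0 without high wells, with at least 10 members per plate and by the second label, with 0 to 7 on leaving out a plate, each omission changing the count. The cause of these shifts was not tested.

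Directions reversed for Cdh6 (-0.40), Esrrg (-0.016) and Pappa (-0.58) with at least 6 counts, Nrg1 (0.48) with spliced counts, and Slit3 (0.20) and Tac1 (0.054) under the looser rule, all against other kept wells, and for Ptprt (0.064) under the looser rule against other Six3 wells. By the second label the stage changes reversed for Cd24a (0.46), Cdkl2 (-0.96), Col4a1 (-0.85), Dach1 (0.41), Ebf1 (0.66), Eno1 (-0.51), Htr2c (-0.24), Meis2 (0.66), Neto1 (-0.052), Nrgn (-1.999), Pbx3 (0.22), Sox11 (0.58), Thy1 (-0.19) and Zfp521 (0.71), and for the Pax5 difference (-0.58). Over settings, for the named genes, the listed genes that passed and a few others followed, 6494 values counted as unchanged. Those with a call kept its direction, and those without a call in either fit were counted there whatever their direction. Detection shares of Foxp2 that moved by less than their SD were counted there too. A further 1152 kept direction and lost only the threshold. Member sums of the first P0 plate rest on 6 wells, where 3 counts make 12.1 CPM.

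The replicate numbers do not pair the plates: the correlations of same-numbered plates were 0.017, 0.024 and -0.025. The replicate block needs shared numbers, so E16 replicate 4 was dropped. On those 6 plates the stage comparison gave 32 calls with the replicate block and 17 without it, against 29 on all 7 plates.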

Other observations

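Adhesion genes moved in both directions between members and the other kept wells, where 2.05% of all genes tested were higher and 2.16% lower in members. Of 28 genes of the cadherin superfamily tested, 7 were higher and 4 lower. Pcdh15, a protocadherin best known from hair cell tip links, lay at 916, 1470 and 1760 CPM (lowest, median, highest of 7 plates) in members and 381, 638 and 917 CPM in the others (log2 fold change 1.12 ± 0.11, edgeR adjusted p = 6.3e-06). Its tip link partner Cdh23 was lower, at 4.11, 11.7 and 24.99 CPM against 15.2, 36.2 and 63.2 CPM (-1.84 ± 0.27, adjusted p = 0.00036). Of 46 genes of synapse organizers, 5 were higher and 7 lower. Lrrtm3, a postsynaptic neurexin partner, averaged 383 ± 105 against 197 ± 35.6 CPM (0.96 ± 0.13), and Cntn4, a contactin, 164 ± 65.6 against 345 ± 94.9 CPM (-1.09 ± 0.12). Both kept their call in every setting in which they were tested, as did Pcdh15 and Cdh23.

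Genes of calcium-binding proteins and of some receptors differed as well. Calb1, the calbindin gene, averaged 11.1 ± 7.82 CPM in members and 94.9 ± 106 CPM in the others (-2.88 ± 0.26, adjusted p = 4.4e-06), with overlap between plates and without a call when the plate block was left out. Necab2 was higher (103 ± 31.3 against 57.9 ± 16.9 CPM, 0.92 ± 0.15) and its relative Necab1 lower (13.0 ± 6.27 against 35.6 ± 10.1 CPM, -1.37 ± 0.22). Erbb4, the neuregulin receptor, lay at 133, 231 and 295 CPM against 396, 443 and 596 CPM without overlap (-1.20 ± 0.13, adjusted p = 1.8e-05), a call lost with spliced counts. The muscarinic receptor Chrm3 averaged 75.7 ± 27.8 against 198 ± 44.2 CPM (-1.26 ± 0.13), a call lost under the looser rule.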
